A study of Homo sapiens with 6 samples.

Results

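The genes described here make and control cholesterol and fatty acids: the sterol-regulated transcription factors SREBF1 and SREBF2 with their control proteins, the enzymes of the mevalonate and sterol steps, and the enzymes that build, elongate, desaturate and activate fatty acids. They were chosen by function, as 37 named genes, with earlier results of these data known. Of these, 36 matched an identifier among the 57820 gene rows, and ACACA had no matching identifier, so no value is given for it. RNA was measured in U266, a human multiple myeloma cell line described in the labels as myeloma and plasmacytoma: 3 MYC libraries and 3 control libraries. The MYC cells overexpress MYC from a lentiviral vector (EF1A-C-MYC) in which the constitutive EF1A promoter drives it. All cells grew in RPMI-1640 medium with fetal bovine serum, and the sources used here name no clone for either group and no vector for the controls, so transduction and MYC cannot be told apart. Nothing in the labels says that a group's samples were grown as separate cultures, so p-values measure only their spread, which may be technical.

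Cholesterol and fatty acids share cytosolic acetyl-CoA as their starting material. The precursors SREBP1 and SREBP2 (from SREBF1 and SREBF2) are held in the endoplasmic reticulum by SCAP and the INSIG proteins while sterols are plentiful. When sterols fall, SCAP escorts them to the Golgi, where proteases release the active factors, and these switch on the synthesis genes, SREBP2 mainly those of sterols and SREBP1 mainly those of fatty acids. Plasma cells and myeloma cells secrete large amounts of antibody and need wide membranes of the endoplasmic reticulum, which are made from these lipids.

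Summed expected counts ran from 27139978 to 158667309 in the MYC libraries and from 55026416 to 130576913 in the controls. MYC had 105, 110 and 92.1 CPM (the count scaled to library size with TMM factors) in the MYC libraries, against 3.91, 4.16 and 4.51 CPM in the controls. It was thus higher in every MYC library than in any control, with a log2 fold change of 4.60 ± 0.10 (SE, edgeR adjusted p = 9.71e-08), and vector and endogenous MYC reads were counted together. All 8 plasma cell markers were present, with a summed level of 3886 to 4425 TPM (a unit scaled for transcript length and for the library's total) in MYC and 6897 to 7276 TPM in control libraries. IGHE carried most of the difference in the sum, with a mean of 767.9 TPM in MYC and 3203 TPM in control libraries, and IRF4, XBP1, SDC1 and TNFRSF17 were also called lower. JCHAIN was called higher (2043 TPM in MYC and 1825 TPM in control libraries) but not with the GC offset described below, with which MZB1 was called higher and SLAMF7 lower. The 4 B cell markers were each under 1 TPM in every library. The 4 T cell markers summed to 12.6 to 14.6 TPM in MYC and 8.72 to 11.4 TPM in control libraries, the 4 epithelial markers to 7.46 to 8.68 and 4.02 to 4.77 TPM, the 4 myeloid markers to 1.01 to 1.59 and 1.61 to 2.30 TPM, and the 4 stromal markers to 1.92 to 2.00 and 2.69 to 3.06 TPM. LUM was listed at 0 in every library, KRT19 at 0 in the 3 MYC libraries and CD22 at 0 in the 3 controls. The part of these markers in the results below was not tested.

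Of the lipid synthesis genes, more were called higher than lower in MYC cells. At an adjusted p under 0.05, 22 of the 36 genes were called higher and 11 lower, where 28.8% of the 17679 genes tested were called higher and 32.1% lower. The median log2 fold change was 0.25 over the 36 genes and -0.02 over all genes tested. All 36 passed the filter on low counts. The groups did not overlap in CPM for 33 of the 36, against 67.1% of all genes tested: the MYC libraries lay above the controls for 22 (32.1% of all genes) and below them for 11 (35.1%). In bulk RNA such as this, fewer cells of a kind and less RNA per cell cannot be told apart. On the counts, the fatty acid elongase ELOVL6, the acyl-CoA synthetase ACSL4, the thiolase ACAT2 and the desaturase SCD led the increases. MVD of the mevalonate steps, SREBF1, the sterol reductase TM7SF2 and lanosterol synthase, LSS, led the decreases. With the GC offset described below, ELOVL6 and ACSL4 still led the increases, but FDPS came next (log2 fold change 0.57). MVD and LSS then led the decreases (-0.61 and -0.57), and TM7SF2 was not called.

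The GC content of the transcripts moved with these changes. Of the 16 genes under 50% GC, 15 were called higher and 0 lower by the quasi-likelihood test in edgeR, and the remaining one, INSIG2, was not called. Of all genes tested, 47.75% were called higher and 8.06% lower under 45% GC, and 37.8% higher and 15.55% lower from 45% to 50% GC. All 5 genes of 60% GC or more (SREBF1, MVK, TM7SF2, MVD and FASN) were called lower, in a band where 83.8% of all 2300 genes tested were called lower and the median log2 fold change was -1.10. Across the 36 genes Spearman's rho between log2 fold change and GC content was -0.70, and it was -0.56 across 17202 genes tested with a known GC content. Genes of one library share its preparation and depth, so these are descriptions. Every comparison was therefore repeated with a GC offset. It is based on each library's smooth trend of log2 CPM on GC content, and removes its departure from the mean trend of the libraries. These departures differ between the groups, so a technical GC effect and an effect of MYC on GC-rich genes cannot be told apart. With the offset, 21 of the 36 genes were called higher and 5 lower, where 30.0% of 17202 genes tested were called higher and 29.1% lower, and the median log2 fold changes were 0.17 over the 36 genes and -0.01 over all genes tested.

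**Figure D1:**
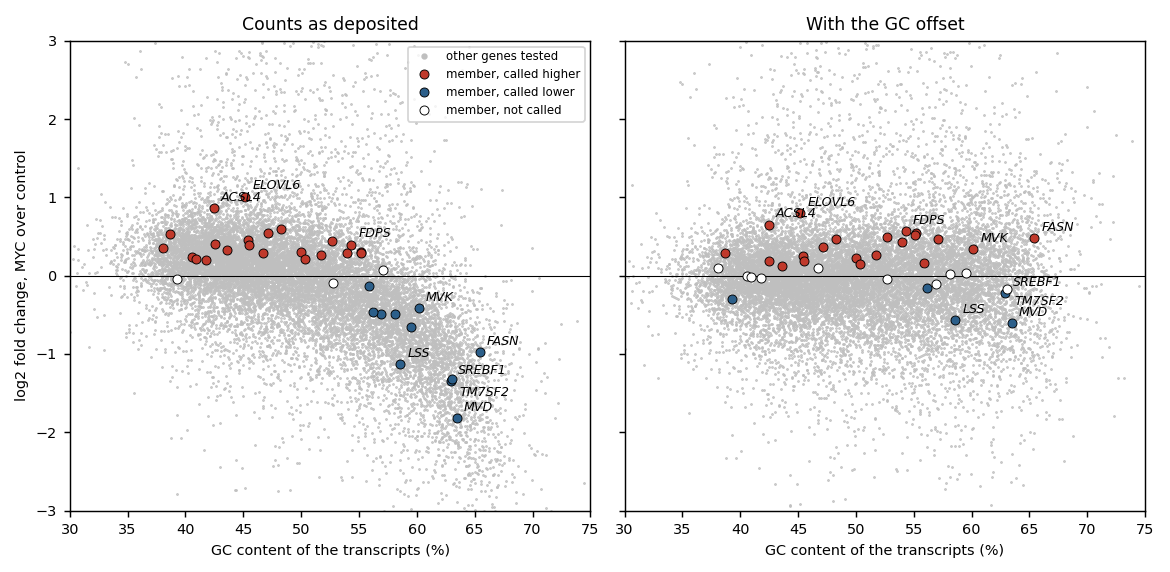
Log2 fold change of MYC over control (vertical axis) against the GC content of each gene's transcripts in percent (horizontal axis), for counts as deposited (left) and with the GC offset (right). Grey points are all other genes tested within the axis limits, and large points are the lipid synthesis genes, coloured by their call. The 5 genes of 60% GC or more lie below 0 on the left, where FASN is at -0.98, while on the right FASN is at 0.48 and MVD at -0.61.

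Both ways, 17 of the 36 genes were called higher and 4 lower (SREBF1, MVD, LSS and FADS2). Of all 17202 genes in both fits, 3662 were called higher both ways and 3439 lower. The call turned round for 3 of the 36, MVK, FASN and FADS1, all lower on the counts and higher with the offset. Among all genes it turned round for 603, in either direction. The call ended for 5 of the 36 called higher (SQLE, CYP51A1, SC5D, ACSL1 and ACSL3) and for 4 called lower (SREBF2, SCAP, PMVK and TM7SF2). Of all genes, 1337 called higher and 1482 called lower lost their call. With the offset DHCR7 was called higher and INSIG2 lower, and ACACB was called by neither. Over all 24 alternative settings, 14 genes were called higher in every one (INSIG1, ACAT2, IDI1, FDPS, MSMO1, NSDHL, EBP, ACLY, ACSS2, ELOVL1, ELOVL5, ELOVL6, SCD and ACSL4), and MVD and LSS were called lower in every one. How many of all genes were called alike in every setting was not counted. On log2(TPM + 1), tested with limma, 18 of the 36 genes were called higher and 7 lower (21.3% and 29.7% of all genes), and with a pseudocount of 0.1 the counts were again 18 and 7 (21.4% and 29.7%). With the effective length as an offset in edgeR they were 20 and 6 (26.1% and 29.0%).

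**Figure D2:**
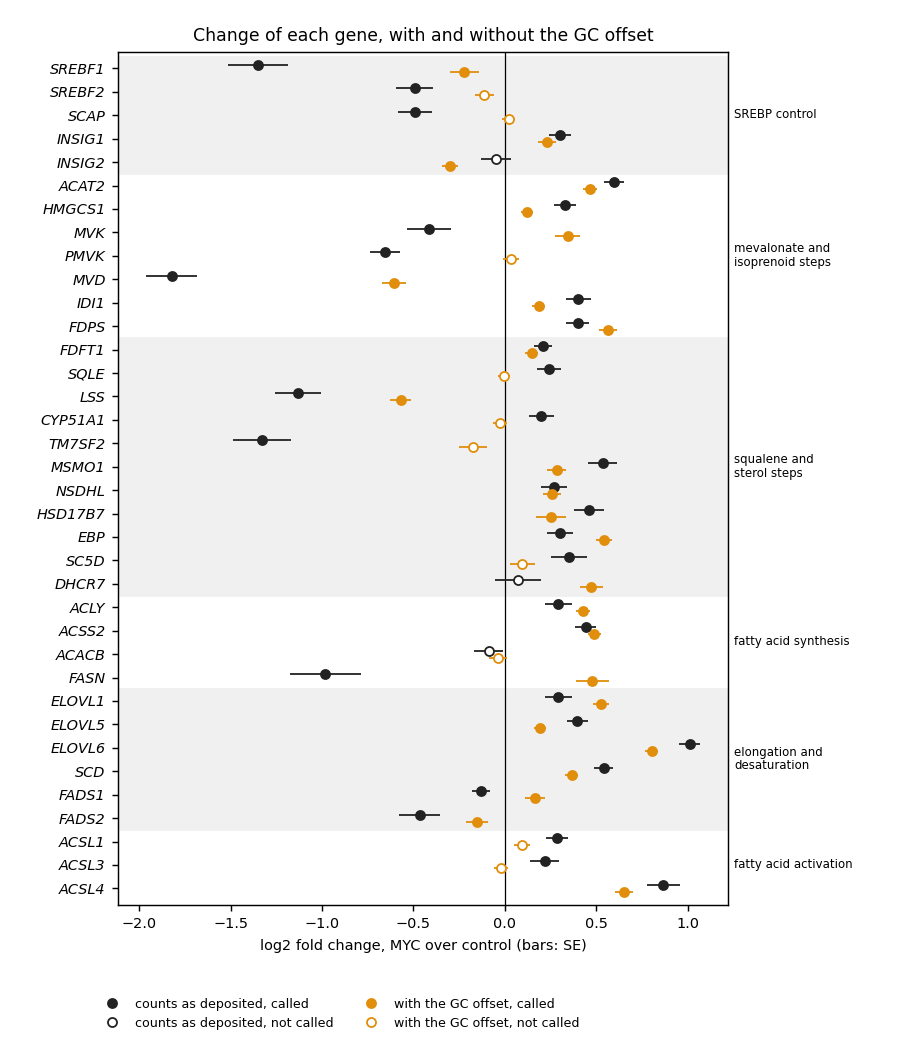
Log2 fold change of MYC over control with its SE for each gene, by role, from counts as deposited (black) and with the GC offset (orange). Filled points passed the test and open points did not. ELOVL6 lies farthest to the right in both, at 1.01 and 0.80, and MVD farthest to the left in both, at -1.82 and -0.61.

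The promoters of 33 of the 37 genes were matched by symbol in a RefSeq table of 250 bases before to 50 after the start site (build GRCh38.p14, whereas the submitters' processing notes name GRCh37 for the counts). SREBP factors act at promoters beside NFY, which reads CCAAT, and SP1, which reads GC boxes. CCAAT was found on either strand in 20 of the 33 promoters (60.6%), against 37.3% of 11680 promoters of genes tested here. The GC box GGGCGG was found in 29 (87.9% against 66.8%), and the E-box CACGTG, the letters read by MYC with MAX, in 5 (15.2% against 10.0%): SCAP, ELOVL5, INSIG1, SC5D and LSS. The letters TCACNCCAC of a sterol regulatory element were found in 1, SREBF2 (3.03% against 1.17%). Other spellings of this element were not searched, and ACAT2, FDFT1, SQLE and FASN had no promoter matched. The E-box reads the same on both strands and was counted once. Promoters with CCAAT belonged both to genes higher in both fits, such as MSMO1, and to genes lower in both, such as MVD and LSS. A match is a description of the letters and does not show binding. The promoters of 4 genes are shown for these cases, 5′ to 3′ on the gene's strand, with the CCAAT letters (ATTGG on the other strand) and the sterol element in capitals: SREBF2 (chr22:41832855-41833154, + strand) with its sterol element TCACCCCAC starting 133 bases before the start site, MSMO1 (chr4:165327419-165327718, + strand) with 4 CCAAT boxes, MVD (chr16:88663042-88663341, - strand) with 3, and ELOVL6 (chr4:110198566-110198865, - strand), the gene with the largest rise, with no match to either.
SREBF2: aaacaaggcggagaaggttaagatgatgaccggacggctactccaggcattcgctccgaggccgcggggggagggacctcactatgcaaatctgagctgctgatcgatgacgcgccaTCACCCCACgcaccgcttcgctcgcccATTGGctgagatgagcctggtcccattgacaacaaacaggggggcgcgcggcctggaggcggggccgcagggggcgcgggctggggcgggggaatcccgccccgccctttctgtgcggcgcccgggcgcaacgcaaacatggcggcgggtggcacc
MSMO1: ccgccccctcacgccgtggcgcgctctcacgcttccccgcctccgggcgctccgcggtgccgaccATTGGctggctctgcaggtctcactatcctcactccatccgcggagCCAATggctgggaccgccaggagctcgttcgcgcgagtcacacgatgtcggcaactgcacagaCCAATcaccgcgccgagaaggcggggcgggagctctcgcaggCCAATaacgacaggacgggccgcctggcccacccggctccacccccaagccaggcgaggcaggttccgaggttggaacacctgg
MVD: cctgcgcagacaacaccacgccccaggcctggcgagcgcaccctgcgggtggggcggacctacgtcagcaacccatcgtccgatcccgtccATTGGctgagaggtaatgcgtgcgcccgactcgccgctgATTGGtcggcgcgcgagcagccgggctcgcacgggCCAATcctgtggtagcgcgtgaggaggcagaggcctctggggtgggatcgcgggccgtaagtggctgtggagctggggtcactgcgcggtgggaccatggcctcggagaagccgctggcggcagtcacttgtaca
ELOVL6: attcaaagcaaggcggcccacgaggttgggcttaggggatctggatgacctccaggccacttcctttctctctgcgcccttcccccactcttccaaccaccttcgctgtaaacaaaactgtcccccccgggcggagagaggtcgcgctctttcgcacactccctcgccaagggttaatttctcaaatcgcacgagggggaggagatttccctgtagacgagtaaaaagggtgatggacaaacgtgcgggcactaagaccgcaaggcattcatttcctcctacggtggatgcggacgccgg

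Among the 5 genes of SREBP control, 1 was called higher and 3 lower on the counts, and 1 higher and 2 lower with the GC offset. For this and each later role, the shares of all genes tested were 28.8% higher and 32.1% lower on the counts. With the offset these shares were 30.0% and 29.1%. SREBF1, the factor that mainly drives fatty acid genes, had 13.5, 10.9 and 7.78 CPM in the MYC libraries, against 27.6, 27.6 and 25.9 CPM in the controls. All 3 MYC libraries lay below all 3 controls and spread more widely than them. The log2 fold change was -1.35 ± 0.16 (edgeR adjusted p = 0.000164). With the GC offset it was -0.22 ± 0.08 (edgeR adjusted p = 0.0338), and this call ended without MYC replicate 2 (-0.24), MYC replicate 3 (-0.16), control replicate 1 (-0.19) or control replicate 2 (-0.24). INSIG1, which retains SCAP in the endoplasmic reticulum and is itself a target of the SREBP factors, had 128, 128 and 126 CPM in MYC libraries, against 112, 99.8 and 98.6 CPM in controls. It rose 1.23-fold (edgeR adjusted p = 0.00284), and 1.17-fold with the offset. Its relative INSIG2 had a log2 fold change of -0.05 ± 0.08 with overlapping groups, and was called lower with the offset, at -0.30 ± 0.04 (edgeR adjusted p = 0.000244).

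SREBF2, the factor of the sterol genes, and SCAP, the escort of both factors, gave different answers by scale. SREBF2 had 211, 195 and 156 CPM in MYC libraries, against 259, 270 and 260 CPM in controls, a log2 fold change of -0.49 ± 0.10 (edgeR adjusted p = 0.00291). Per length, however, it stood at 75.1, 75.2 and 76.2 TPM in MYC libraries, against 71.4, 73.1 and 74.1 TPM in controls, so that on this scale the MYC libraries lay above the controls. The deposited effective length of SREBF2 was 3111 bases in MYC and 4700 bases in control libraries on average, without overlap. This length is corrected for fragment length and averaged over the gene's transcripts, weighted by their estimated shares. On log2(TPM + 1) the difference was 0.05 (limma adjusted p = 0.429), and with the GC offset it was -0.11 (edgeR adjusted p = 0.0788). SCAP had a log2 fold change of -0.49 ± 0.09 on the counts (edgeR adjusted p = 0.00196), -0.09 on log2(TPM + 1) and 0.02 with the offset, and its effective length was 2321 bases in MYC and 3144 bases in control libraries. No direction is given for either gene.

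**Figure D3:**
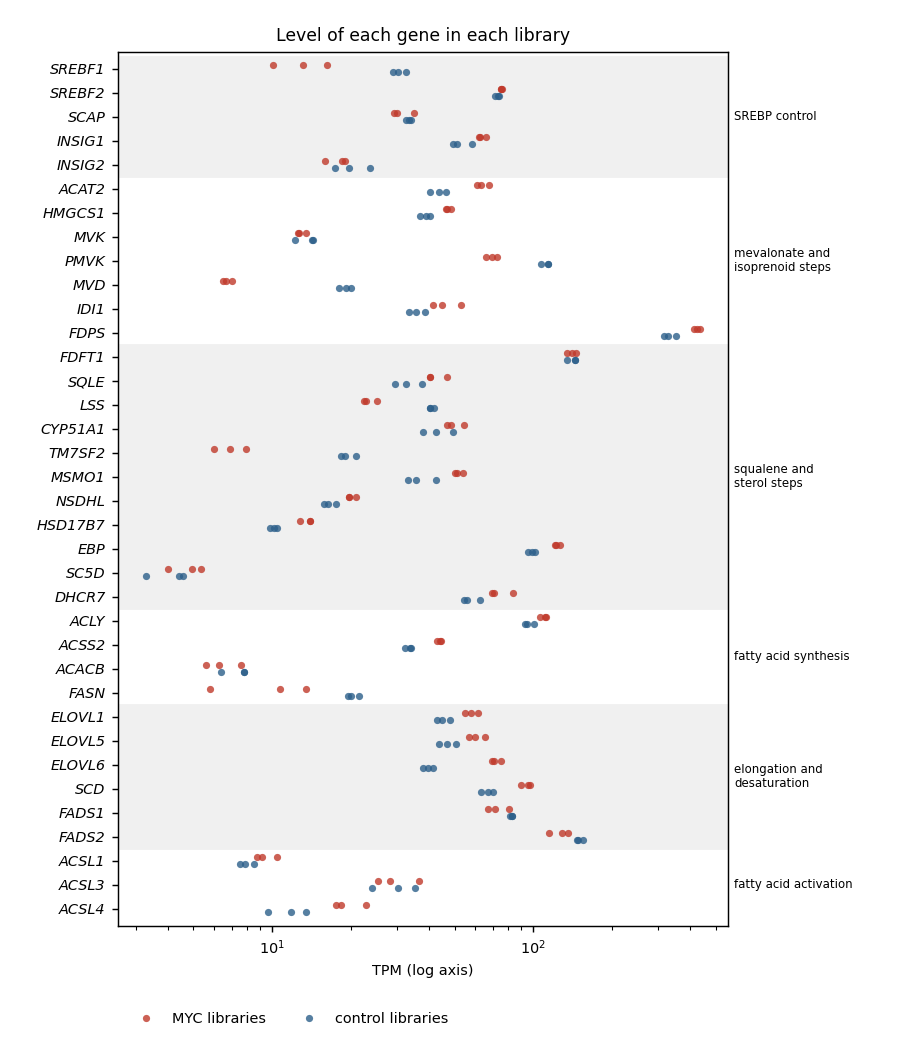
Level of each gene in TPM (horizontal log axis) in the 3 MYC libraries (red) and the 3 control libraries (blue), by role. FDPS is the highest gene in both groups, at a mean of 424.7 TPM in MYC and 332.8 TPM in control libraries, and SC5D the lowest, at 4.76 and 4.08 TPM.

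Of the 7 genes from acetyl-CoA to farnesyl diphosphate, 4 were called higher and 3 lower, and with the offset 5 were higher and 1 lower. ACAT2, the cytosolic thiolase at the entry of the pathway, had 87.6, 82.9 and 83.97 CPM in MYC libraries, against 57.7, 54.5 and 56.2 CPM in controls. It rose 1.51-fold (edgeR adjusted p = 3.99e-05) and 1.38-fold with the offset, and every MYC library exceeded every control. ACAT2 overlaps the TCP1 gene on the other strand over 9.23% of its exon bases, TCP1 stood at 343 TPM in MYC and 185 TPM in control libraries, and reads were not told apart by strand. ACAT2 also overlaps SOD2 over 26.5% of its exon bases. Exon overlaps were taken from a GENCODE annotation on GRCh38, whereas the submitters' notes name GRCh37 for the counts. The identifier of SOD2 in that annotation matched no gene row, so no level is given for it. HMGCS1, the synthase that adds a further acetyl unit, had 92.4, 92.2 and 97.8 CPM in MYC libraries, against 78.6, 70.6 and 75.5 CPM in controls. It rose 1.26-fold (edgeR adjusted p = 0.00154), and 1.09-fold with the offset. This call with the offset ended without control replicate 2, at a log2 fold change of 0.10 (edgeR adjusted p = 0.0514).

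The middle of the mevalonate pathway was lower on the counts. MVK, which phosphorylates mevalonate, had 15.2, 13.2 and 10.6 CPM in MYC libraries, against 17.2, 16.5 and 17.9 CPM in controls, a log2 fold change of -0.41 ± 0.12 (edgeR adjusted p = 0.0155), which was not called without control replicate 3 (-0.39) or on log2(TPM + 1) (-0.06). With the GC offset MVK was called higher, at 0.34 ± 0.07 (edgeR adjusted p = 0.00188), so it has no single direction. PMVK, the next kinase, had 63.5, 59.3 and 52.5 CPM in MYC libraries, against 90.7, 98.1 and 87 CPM in controls. Its log2 fold change was -0.66 ± 0.08 (edgeR adjusted p = 0.000182) and 0.03 ± 0.04 with the offset, where it was not called.

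MVD (ENSG00000167508.6), which decarboxylates the product to isopentenyl diphosphate, was the most reduced of the 36 genes in both fits. It had 5.83, 4.81 and 3.81 CPM in MYC libraries, against 15.6, 18.2 and 16.4 CPM in controls, and the groups did not overlap. It fell 3.54-fold (edgeR adjusted p = 1.86e-05) and 1.52-fold with the offset (edgeR adjusted p = 4.28e-05). Both genes after this step rose. IDI1, the isomerase of isopentenyl diphosphate, rose 1.32-fold (edgeR adjusted p = 0.00111) and 1.14-fold with the offset. FDPS, which makes farnesyl diphosphate for sterols, dolichol and protein prenylation, had 284, 269 and 274 CPM in MYC libraries, against 197, 225 and 206 CPM in controls. It rose 1.32-fold (edgeR adjusted p = 0.000736) and 1.48-fold with the offset. The 8 FDPS pseudogenes listed summed to 0.640 TPM in MYC and 0.497 TPM in control libraries.

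In the 11 genes from squalene to cholesterol, 8 were called higher and 2 lower, and with the offset 6 were higher and 1 lower. MSMO1, the oxidase that starts removal of methyl groups from lanosterol's product, had 80.4, 78.6 and 79.7 CPM in MYC libraries, against 62.0, 50.5 and 52.4 CPM in controls. It rose 1.45-fold (edgeR adjusted p = 0.000551) and 1.22-fold with the offset. NSDHL and HSD17B7, which act after MSMO1 in the same demethylation, rose 1.20-fold and 1.38-fold, and 1.20-fold and 1.19-fold with the offset. The call for HSD17B7 with the offset ended without MYC replicate 2 (log2 fold change 0.21), control replicate 1 (0.20) or control replicate 3 (0.23). The 2 HSD17B7 pseudogenes listed summed to 2.12 TPM in MYC and 1.57 TPM in control libraries, beside 13.6 and 10.13 TPM for HSD17B7. EBP, the isomerase that moves a ring double bond, had 61.7, 63.6 and 56.2 CPM in MYC libraries, against 46.2, 52.7 and 48.5 CPM in controls, and rose 1.23-fold (edgeR adjusted p = 0.00697) and 1.46-fold with the offset.

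LSS (ENSG00000160285.10), which folds squalene epoxide into lanosterol, had 69.98, 60.2 and 46.8 CPM in MYC libraries, against 126, 133 and 127 CPM in controls, and the groups did not overlap in CPM, in TPM or with the GC offset. It fell 2.19-fold (edgeR adjusted p = 0.000104) and 1.49-fold with the offset (edgeR adjusted p = 3.19e-05). TM7SF2, a sterol reductase, had 7.53, 6.52 and 4.49 CPM in MYC libraries, against 14.6, 15.9 and 15.45 CPM in controls, and fell 2.51-fold (edgeR adjusted p = 0.000153). With the offset its log2 fold change was -0.17 ± 0.08 (edgeR adjusted p = 0.077) and it was not called, except without MYC replicate 1 (-0.21, edgeR adjusted p = 0.04998). TM7SF2 shares 16 exon bases with VPS51, which stood at 47.5 TPM in MYC and 118 TPM in control libraries.

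The squalene genes changed less, and not in every fit. FDFT1, squalene synthase, rose 1.16-fold (edgeR adjusted p = 0.00586) and 1.11-fold with the offset, but on log2(TPM + 1) the difference was -0.01 (limma adjusted p = 0.848), and its effective length was 1599 bases in MYC and 1416 bases in control libraries. The call also ended with no expression filter (0.19) and, with the offset, without control replicate 3 (0.11). SQLE, squalene epoxidase, was called higher at a log2 fold change of 0.24 ± 0.07 (edgeR adjusted p = 0.0119), and stood at 0.00 with the offset. The call for SQLE ended without control replicate 2 (0.19) or control replicate 3 (0.22). CYP51A1, the lanosterol demethylase, was called at 0.20 ± 0.07 (edgeR adjusted p = 0.0355), and this ended with the offset (-0.03), on log2(TPM + 1) (0.21) and without MYC replicate 2 (0.198), MYC replicate 3 (0.19), control replicate 2 (0.14) or control replicate 3 (0.17). CYP51A1 shares 79.4% of its exon bases with a gene model on the same strand (AC000120.2) in the GRCh38 annotation. The identifier of this model matched no gene row, and its part in the counts of CYP51A1 was not tested.

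At the end of the pathway, the desaturase SC5D had 7.26, 8.26 and 8.26 CPM in MYC libraries, against 6.81, 5.74 and 6.25 CPM in controls. It was called higher at a log2 fold change of 0.35 ± 0.10 (edgeR adjusted p = 0.0125), which ended with the offset (0.09), on log2(TPM + 1) (0.18) and without MYC replicate 2 (0.32) or control replicate 2 (0.28). DHCR7, the reductase that yields cholesterol, had 93.4, 82.8 and 64.1 CPM in MYC libraries, against 70.4, 81.9 and 75.9 CPM in controls. The MYC libraries reached both above and below the controls, and the log2 fold change was 0.07 ± 0.13 (edgeR adjusted p = 0.646). With the offset DHCR7 was called higher, at 0.47 ± 0.06 (edgeR adjusted p = 0.000196), as it was on log2(TPM + 1) (0.37, limma adjusted p = 0.00997) and without MYC replicate 3 (0.21, edgeR adjusted p = 0.0409).

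Of the 4 fatty acid synthesis genes with values, 2 were called higher and 1 lower, and with the offset 3 were higher and 0 lower by the quasi-likelihood test in edgeR. The 2 suppliers of acetyl-CoA rose together. ACLY, which splits citrate, had 346, 326 and 292 CPM in MYC libraries, against 248, 268 and 271 CPM in controls, and rose 1.22-fold (edgeR adjusted p = 0.00894) and 1.34-fold with the offset. ACSS2, which activates acetate, had 81.0, 78.0 and 73.05 CPM in MYC libraries, against 55.1, 57.7 and 58.0 CPM in controls, and rose 1.36-fold (edgeR adjusted p = 0.000302) and 1.40-fold with the offset. For both genes all MYC libraries lay above all controls. ACACB, a carboxylase that makes malonyl-CoA at mitochondria, had a log2 fold change of -0.09 ± 0.08 (edgeR adjusted p = 0.35) and -0.04 ± 0.05 with the offset.

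FASN, the synthase that assembles palmitate, had 39.1, 36.3 and 21.3 CPM in MYC libraries, against 64.6, 68.1 and 57.8 CPM in controls, so every MYC library lay below every control and MYC replicate 3 lay lowest. Its log2 fold change was -0.98 ± 0.20 (edgeR adjusted p = 0.00247). With the offset it was 0.48 ± 0.09 (edgeR adjusted p = 0.00141), with all MYC libraries above the controls. At 65.4% GC, FASN has the highest GC content of the 36 genes, and its value on the counts lies nearer to 0 than the median of all genes of 60% GC or more (-1.10). No direction is given for FASN.

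Elongation and desaturation held the largest increase of the 36 genes. Of the 6 genes 4 were called higher and 2 lower, and with the offset 5 were higher and 1 lower. ELOVL6 (ENSG00000170522.5), which extends palmitate to stearate, had 156, 159 and 162 CPM in MYC libraries, against 82.5, 73.8 and 80.3 CPM in controls. It rose 2.01-fold (edgeR adjusted p = 4.81e-06) and 1.75-fold with the offset (edgeR adjusted p = 2.02e-07). SCD, the desaturase that makes oleate from stearate, the product of ELOVL6, had 382, 395 and 376 CPM in MYC libraries, against 271, 259 and 263 CPM in controls. It rose 1.45-fold (edgeR adjusted p = 5.35e-05) and 1.29-fold with the offset. In both genes the libraries of each group lay close together and the groups did not overlap.

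The other elongases rose less. ELOVL5, which extends polyunsaturated fatty acids, rose 1.32-fold (edgeR adjusted p = 0.000445) and 1.14-fold with the offset. ELOVL1, which makes very long saturated chains for sphingolipids, rose 1.23-fold (edgeR adjusted p = 0.00881) and 1.44-fold with the offset. FADS1 and FADS2, which lie side by side, encode the desaturases of polyunsaturated fatty acids. FADS2 had 173, 161.5 and 125 CPM in MYC libraries, against 196, 224 and 214 CPM in controls, and fell 1.38-fold (edgeR adjusted p = 0.0068). With the offset it was at -0.15 ± 0.06 (edgeR adjusted p = 0.0489), a call that ended without MYC replicate 2 (-0.18), MYC replicate 3 (-0.08), control replicate 2 (-0.14) or control replicate 3 (-0.16). It also ended with the effective length offset (-0.21). FADS1 had 204, 199 and 200 CPM in MYC libraries, against 219, 221 and 220 CPM in controls, a log2 fold change of -0.13 ± 0.05 (edgeR adjusted p = 0.0397). This call ended when any library other than control replicate 1 was left out (-0.12 to -0.14), and FADS1 was called higher with the offset, at 0.16 ± 0.05 (edgeR adjusted p = 0.0254), except without control replicate 2 (0.14) or control replicate 3 (0.15). FADS1 and FADS2 overlap over 490 exon bases on opposite strands.

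The 3 acyl-CoA synthetases, which activate fatty acids for use in lipids, were called higher on the counts, and 1 of them with the offset. ACSL4, which prefers arachidonate and other polyunsaturated fatty acids, had 63.1, 64.45 and 73.6 CPM in MYC libraries, against 40.7, 33.9 and 35.8 CPM in controls. It rose 1.82-fold (edgeR adjusted p = 7.05e-05) and 1.57-fold with the offset (edgeR adjusted p = 4.61e-06), the second largest increase of the 36 genes in both fits. ACSL1 had a log2 fold change of 0.28 ± 0.06 (edgeR adjusted p = 0.00323), and was not called with the offset (0.09) or on log2(TPM + 1) (0.21). ACSL3 was at 0.22 ± 0.08 (edgeR adjusted p = 0.0437) and at -0.02 with the offset, and its call also ended on log2(TPM + 1) (0.00) and without MYC replicate 2 (0.23), MYC replicate 3 (0.16), control replicate 2 (0.15) or control replicate 3 (0.21).

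**Figure D4:**
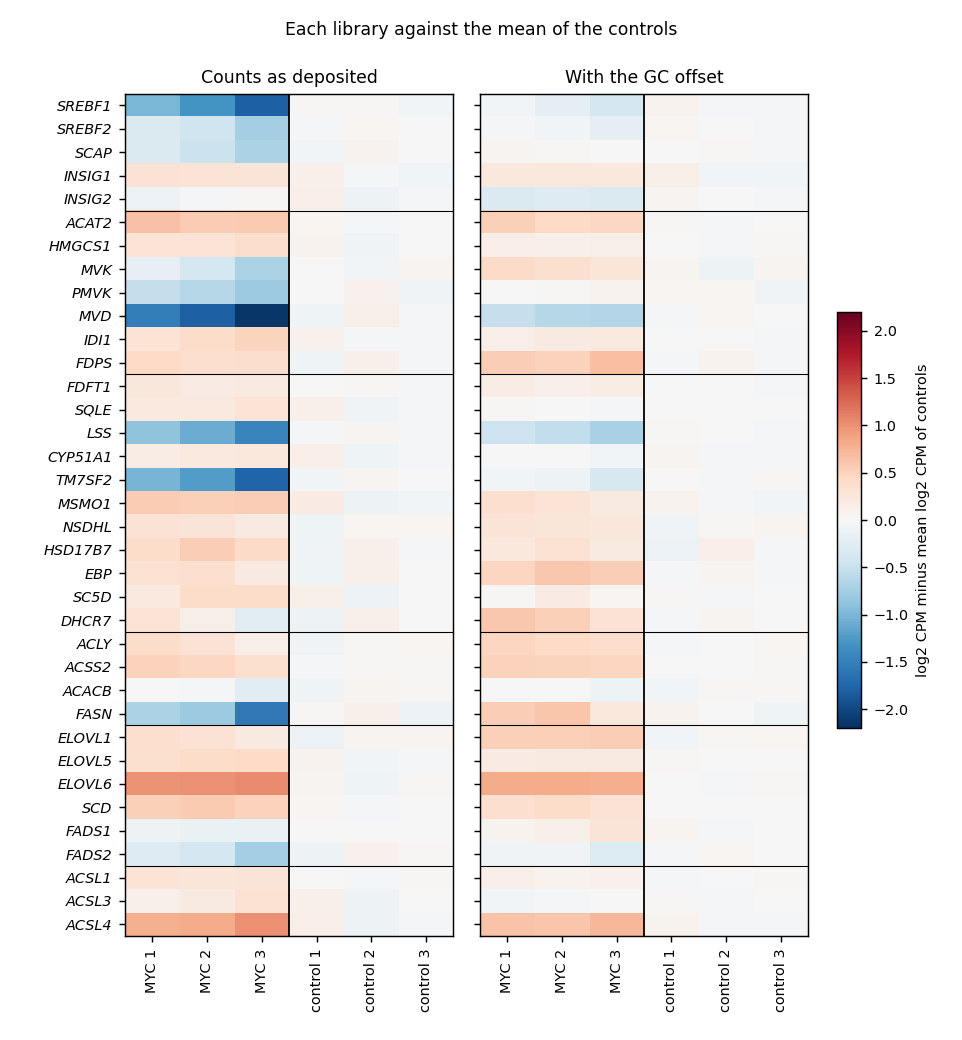
Log2 CPM of each gene in each library minus the mean log2 CPM of the 3 controls, from counts as deposited (left) and with the GC offset (right), with MYC libraries left of the controls in each panel and lines between the roles. Red is higher and blue lower. On the left SREBF1, MVD, LSS, TM7SF2 and FASN are lowest in MYC replicate 3, while ELOVL6 and SCD are alike in all 3 MYC libraries in both panels.

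The MYC libraries differed among themselves along GC content. For the 5 genes of 60% GC or more, the median deviation from the group's mean was 0.29 in MYC replicate 1, 0.06 in MYC replicate 2 and -0.39 in MYC replicate 3 on the log2 scale, while the controls lay within -0.02 and 0.05. For the 16 genes under 50% GC it was -0.03, 0.00 and 0.04 in the MYC libraries, and 0.10, -0.08 and -0.02 in the controls. With the offset the 5 GC-rich genes were at 0.08, 0.01 and -0.17 in the MYC libraries. The GC-rich genes thus spread more widely within the MYC group than the genes under 50% GC.

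Effective length also differed between the groups. It was under 0.85 of the control value in the MYC libraries for 7 of the 36 genes and over 1.15 for 0, where 8.03% and 5.85% of genes tested were beyond these limits. The 7 were SREBF2, at a ratio of 0.662, SCAP (0.738), LSS (0.760), MVK (0.762), DHCR7 (0.780), MVD (0.782) and FADS2 (0.826), and in each of these the groups did not overlap. Which transcripts of these genes differed was not analysed here.

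By level per length, FDPS was the highest gene in both groups. ELOVL6 stood at rank 10 of the 36 genes in MYC cells, with 70.8, 69.8 and 74.99 TPM, and at rank 17 in control cells, with 39.6, 37.8 and 41.5 TPM. LSS stood at rank 24 in MYC cells, with 25.3, 22.5 and 23.0 TPM, and at rank 16 in control cells, with 41.6, 40.2 and 40.4 TPM. PMVK was at rank 11 in MYC and rank 4 in control cells. Many neighbours in this order overlapped. In MYC cells FADS2 (115 to 135 TPM) overlapped both FDFT1 (134 to 145 TPM) and EBP (122 to 127 TPM). The libraries of ELOVL6 overlapped there with those of DHCR7 (69.6 to 83.4 TPM), FADS1 (67.3 to 80.5 TPM) and PMVK (66.1 to 73.0 TPM), so its rank among these is not fixed.

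Of 88 further genes of lipid metabolism, 83 passed the filter on low counts. Of these 30 were called higher and 31 lower, where 28.8% and 32.1% of all genes tested were. The median log2 fold change was 0.01. With the offset 29 were called higher and 32 lower, where 30.0% and 29.1% of all genes tested were. The same shares of all genes stand beside the counts of each list below. Among 16 genes of sterol transport, storage and export tested, 4 were called higher and 9 lower (5 and 8 with the offset). SCARB1, the receptor that takes up cholesterol esters from HDL, rose to 8.69 ± 1.41 CPM in MYC libraries, against 1.37 ± 0.175 CPM in controls (SD, n = 3 each), a log2 fold change of 2.65 ± 0.15 (edgeR adjusted p = 4.42e-06). LIPA, the lysosomal lipase that frees cholesterol from its esters, rose by 0.59 on the same scale, while the lipoprotein receptor VLDLR was at -0.73 and the oxysterol-binding family member OSBPL2 at -0.65, and all 4 kept their call with the offset.

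Of 9 genes of the branches from farnesyl diphosphate, 5 were called higher and 0 lower by the quasi-likelihood test in edgeR, and 3 higher and 3 lower with the offset. PDSS1 and COQ2, which make and attach the side chain of coenzyme Q, rose 0.94 and 0.60 on the log2 scale. Of 10 genes that supply acetyl-CoA and NADPH, 2 were called higher and 6 lower, and 5 and 2 with the offset. Citrate synthase, CS, and malic enzyme, ME1, rose by 0.48 and 0.61, and the cytosolic isocitrate dehydrogenase IDH1 and the mitochondrial acetate enzyme ACSS1 were at -0.75 and -0.90, all called with the offset too.

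Of 15 genes of SREBP processing and stability, 5 were called higher and 6 lower, and 2 and 10 with the offset. The COPII coat genes that carry SCAP to the Golgi went both ways, with SAR1A at 0.46 and SEC24B at 0.35, against -0.42 for SEC24D. The call for SEC24B with the offset ended without MYC replicate 1 (0.14), MYC replicate 2 (0.11), control replicate 1 (0.12) or control replicate 2 (0.15). NFYC, a subunit of the CCAAT-binding factor NFY, was at -0.46 and, with the offset, at -0.43, but at -0.05 on log2(TPM + 1), where it was not called.

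Of 11 further elongation and desaturation genes tested, 4 were called higher and 3 lower (3 and 4 with the offset). HACD3, the dehydratase of the elongation cycle, rose by 0.65 on the log2 scale, and ACSL5 by 3.43 to 1.69 ± 0.135 CPM in MYC libraries, against 0.159 ± 0.0262 CPM in controls (SD, n = 3 each). TECR, the reductase that ends the elongation cycle, was at -0.78 on the counts and at 0.03, not called, with the offset. FADS3 was at -1.31, and was not called on log2(TPM + 1) (-0.48). Of 12 glycerolipid genes tested, 4 were called higher and 4 lower (6 and 4 with the offset). AGPAT5 was at 0.61 and CHPT1 at 0.57, while choline kinase, CHKA, was at -0.70, and PCYT1A was at -0.27, not called on log2(TPM + 1) (-0.12).

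Of 10 genes of fatty acid breakdown tested, 6 were called higher and 3 lower, and 5 and 1 with the offset. CPT1A, the gate for entry of fatty acids into mitochondria, rose by 0.50 and HADHA of the beta-oxidation complex by 0.41 on the log2 scale. ECI1, an isomerase of the same pathway, fell by 1.93 on the log2 scale, and by 0.59 with the offset. ACADVL, the dehydrogenase of very long chains, was called lower on the counts (-0.43) and higher with the offset (0.23), so no direction is given for it.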

How the data were processed

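Poly-A RNA of 3 MYC and 3 control libraries of U266 cells was sequenced with NEBNext Ultra libraries, per the labels' protocols, a kit without strand marking. Per the submitters' processing notes, cutadapt and TopHat2 and the build GRCh37 were used. For versions and for the annotation the entry is: not given in the sources used here. What the authors deposited are gene tables with the columns RSEM writes, per the file headers: they hold expected counts (not whole, one value per gene), TPM and the effective length. The members, lists and tests were chosen with earlier results of these data known.

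Expected counts were rounded and tested in edgeR 4.0.16 (R 4.3.3): default filter, TMM factors, group only, quasi-likelihood F test, Benjamini-Hochberg adjustment over all genes tested, called under 0.05. SE comes from the F statistic. The code was tested on simulated counts for 17344 genes. It made 180 calls there, and 22 of these fell on genes simulated without any change, a larger share than the threshold of 0.05 aims for. True changes were found in 64.6% of cases at a factor of 1.5, in 78.5% at 2 and in 100% at 4. Recovery at smaller factors, where many changes described here lie, was not measured. The simulation held no GC trend and changed far fewer genes than were called in the data, so its rates need not hold for the data. Symbols matched 51996 of 57820 identifiers. GC content is the mean over a gene's GENCODE transcripts. Its offset is each library's departure from the mean loess trend (span 0.4), followed by TMM. Genes without a GC value were left out there. Alternatives were limma 3.58.1 (voom, and log2 TPM with pseudocounts 1 and 0.1), DESeq2 1.42.0, other factors and filters, an effective length offset, a replicate block and each library left out. All 36 matched genes could be named, and of each further list up to 2 higher and 2 lower genes by adjusted p.

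Libraries of a group differed by more than sampling noise in every pair: chi-square was at least 8.74 times its degrees of freedom. Intervals from counting were not used: the spread between libraries is the error.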

Additional observations from a re-analysis of the deposited data

How the results depend on the processing

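The number of the 36 genes called lower, 11 with the counts as deposited, was 7 on log2(TPM + 1), 7 on log2(TPM + 0.1), 6 with the effective length offset, 5 with the GC offset and 6 with the GC offset and replicate block. With the GC offset and each library left out in turn it was 3 to 6. Of all genes, 4230 to 4884 were called lower in these fits, with 17118 to 18062 tested. With the offset and all libraries, 4998 of 17202 were. The number called higher stayed within 18 to 22 over all 24 alternatives. With a mean CPM of at least 5, 3695 of all genes were called lower, as fewer genes were tested (10566). Among called genes, these log2 fold changes took the other sign. For SREBF2 they were 0.0501 on log2(TPM + 1), 0.0507 with the smaller pseudocount and 0.0821 with the effective length offset, and for FDFT1 -0.0149 and -0.015 on the TPM scales. With the GC offset, with the GC offset and block, and as a range over all 6 libraries left out, the values were 0.0213, 0.0208 and -0.0018 to 0.0399 for SCAP, 0.3428, 0.3494 and 0.2817 to 0.3736 for MVK, and 0.0316, 0.0318 and -0.0219 to 0.0484 for PMVK. SCAP and PMVK kept their sign without control replicate 3. In the same settings they were -0.0044, -0.004 and -0.0304 to 0.0101 for SQLE, which kept its sign without MYC replicate 3, -0.0267, -0.0257 and -0.0568 to -0.0009 for CYP51A1, and 0.4781, 0.4666 and 0.3775 to 0.5687 for FASN. For FADS1 they were 0.1649, 0.1638 and 0.1081 to 0.2049, and for ACSL3 -0.0235, -0.0226 and -0.0508 to -0.0074. With each library left out and no GC offset, the ranges were -0.5807 to -0.3989 for SCAP, -0.5227 to -0.2929 for MVK, -0.7145 to -0.5831 for PMVK, 0.1892 to 0.2722 for SQLE, 0.1405 to 0.2491 for CYP51A1, -1.1248 to -0.7525 for FASN, -0.1568 to -0.1237 for FADS1 and 0.1492 to 0.2621 for ACSL3. Values that were not called, of genes not called on the counts, also crossed 0: INSIG2 was at 0.0068 without control replicate 1, DHCR7 at -0.0468 without MYC replicate 1 and -0.0055 without control replicate 1, and ACACB at 0.0046 with the GC offset and without MYC replicate 3. The cause was not tested.

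In the labels, same-numbered samples share only a number. Their deviations from the group means correlated at -0.0472, 0.0779 and 0.11 across genes. MYC and control samples of different numbers correlated at -0.164 to 0.103. Whether same-numbered samples shared a batch cannot be told from these values. With the replicate block 20 of the 36 genes were called higher and 10 lower (4649 and 5380 of 17679 genes tested), and with the GC offset and block 21 and 6 (5101 and 4910 of 17202). The block ended the calls of CYP51A1 (0.2034), FADS1 (-0.1315) and ACSL3 (0.2184). With the GC offset it brought a call for SREBF2 (-0.1134, edgeR adjusted p = 0.0475). Of the 36 genes, 36 kept their call with limma-voom and with the mean CPM filter, 35 with DESeq2 and with RLE factors, 34 with total counts only and 32 with no expression filter. No setting changed the depth, so what depth limits was not tested.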
